A study of Mus musculus with 4 samples.

Results

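Negative feedback on mitogen-activated protein (MAP) kinase signalling was examined through 9 genes of the Dusp, Sprouty and Spred families, Dusp1, Dusp4, Dusp5, Dusp6, Spry1, Spry2, Spry4, Spred1 and Spred2. The members were the probes whose RefSeq accession belonged to one of these symbols, and they numbered 12 probes for 9 genes among 56605 probes and 22911 gene symbols on the array. Expression was compared between a pair of mouse ovarian cancer cell lines, ID8G and GO2, each hybridised to 2 one-colour Agilent arrays. ID8 cells descend from ovarian surface epithelial cells of C57BL/6 mice that transformed spontaneously in culture. ID8G cells are ID8 cells carrying GFP from a retrovirus and were collected by sorting for GFP, with no cloning step described for that sort. GO2 cells are ID8G cells that had passed through 2 rounds of intraperitoneal growth in mice and were sorted after each round from omental tumors as CD45- GFP+ cells. Both lines carry the GFP vector, and RNA came from cells in culture, where both were grown in serum with insulin, transferrin and selenite. The cells recovered after the first round, GO, are not analysed here. The comparison asked which genes differ between a line selected in the peritoneal cavity and its parent.

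A growth factor that binds a receptor tyrosine kinase activates Ras, which sets off the Raf, MEK and ERK kinases in turn, and active ERK switches on genes that include its own inhibitors. The dual-specificity phosphatases (Dusp) remove phosphate from the threonine and tyrosine that activate MAP kinases, Dusp1, Dusp4 and Dusp5 in the nucleus and Dusp6 in the cytoplasm. Sprouty (Spry) and Spred proteins act further upstream at the membrane, where Sprouty proteins interfere with the link from receptor to Ras and Raf, and Spred proteins bring the Ras-inactivating protein neurofibromin to Ras. Many of these genes are induced within a short time of ERK activation, and they are often read as a trace of pathway output in tumor cells.

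Promoter sequence was taken from RefSeq on GRCm38.p6, where the table matched 7 of the 9 genes (all but Dusp4 and Spry4). The 250 bases before the start are shown, 5′ to 3′ on the strand of the gene, for the genes that passed the test as higher in GO2, Dusp1 and Spry1, and for Dusp5, the one with a match to a CArG box. Capitals mark TGACGT on either strand, its palindrome TGACGTCA (the cAMP response element) and CArG boxes. The Dusp1 window is chr17:26508473-26508722 on the minus strand, that of Dusp5 is chr19:53528895-53529144 on the plus strand and that of Spry1 is chr3:37639697-37639946 on the plus strand.
Dusp1: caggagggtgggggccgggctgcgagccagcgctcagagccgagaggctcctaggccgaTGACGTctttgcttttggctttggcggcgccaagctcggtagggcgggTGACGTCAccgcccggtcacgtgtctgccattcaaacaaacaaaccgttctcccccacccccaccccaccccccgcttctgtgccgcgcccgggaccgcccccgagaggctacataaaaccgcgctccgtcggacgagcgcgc
Dusp5: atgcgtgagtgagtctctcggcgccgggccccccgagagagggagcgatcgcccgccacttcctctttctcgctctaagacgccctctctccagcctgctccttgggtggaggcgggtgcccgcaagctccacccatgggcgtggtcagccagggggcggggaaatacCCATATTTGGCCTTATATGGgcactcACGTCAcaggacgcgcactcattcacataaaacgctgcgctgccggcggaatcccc
Spry1: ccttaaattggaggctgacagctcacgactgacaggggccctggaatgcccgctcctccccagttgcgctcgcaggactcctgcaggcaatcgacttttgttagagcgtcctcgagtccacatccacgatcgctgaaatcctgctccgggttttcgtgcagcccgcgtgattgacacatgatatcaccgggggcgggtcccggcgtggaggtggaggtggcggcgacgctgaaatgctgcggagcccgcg
In Dusp1, TGACGT began 191 bases before the start, and TGACGTCA began 143 bases before it and holds TGACGT on both strands. In Dusp5, a pair of CArG boxes began 82 and 72 bases before the start, and TGACGT lay on the other strand 56 bases before it. Spry1 held none of these letters. Over all 32851 promoters of the same length, 1.55% held TGACGTCA, 6.47% held TGACGT and 1.47% held a CArG box. Of the 7 members in the table, 3 held TGACGT (Dusp1, Dusp5 and Spred2), 1 held TGACGTCA and 1 a CArG box. The ETS core CGGAAG was in 3 members (Spred1, Dusp6 and Spred2) and in 13.6% of all promoters, the E-box CACGTG in 1 member (Dusp1) and 6.02%, and the GC box GGGCGG in 5 members and 32.7%. The AP-1 letters TGANTCA, in 6.75% of all promoters, and TATAAA, in 12.4%, were in none of the 7. These matches, on both strands and with overlaps counted, describe letters in the window and not sites of binding.

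Each array gave 1 intensity per probe, and a level is log2 of that intensity less log2 of the array's own 75th percentile over probes, which was 675 and 668 for ID8G and 635 and 627 for GO2. Levels of different probes are not set against each other, since probes differ in brightness. On each array 27502 to 28841 probes were well above background, no spot was saturated, and the arrays of a line correlated at 0.997 against 0.967 to 0.968 between lines (across probes, which are not independent replicates). All 4 arrays were on 1 slide with those of a line side by side, so position and line cannot be told apart. The labels do not say that the 2 arrays of a line came from separate cultures, so p-values measure only the spread between these samples, which may be technical. With 2 against 2 arrays an exact two-sided permutation test cannot go below p = 0.333, and the test used was limma, with Benjamini-Hochberg adjustment over 28368 probes.

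Most of the feedback genes were lower in GO2 than in ID8G, but the Dusp and Sprouty families were split. Of the 9 genes, each read by its brightest probe, 6 passed the test (adjusted p below 0.05, limma) as lower in GO2 (Dusp4, Dusp5, Spry2, Spry4, Spred1 and Spred2), 2 passed as higher (Dusp1 and Spry1) and 1 did not pass (Dusp6). Over all 22075 gene names tested, 18.9% passed as lower and 17.5% as higher. With a fold of at least 2 required as well, Dusp4 and Dusp5 were lower and Spry1 was higher, where 3.5% of all gene names were lower and 4.78% higher. The median difference of the 9 genes, GO2 minus ID8G, was −0.51 on the log2 scale against −0.02 over all gene names, and the median size without sign was 0.69 against 0.20. The median was −0.28 when the tested probes of a gene were averaged in place of taking the brightest. In all 9 genes the 2 GO2 arrays lay entirely above or below the 2 ID8G arrays, which also held for 74% of all gene names. In cultured cells of this kind, fewer cells that express a gene and less RNA of it per cell cannot be told apart.

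**Figure D1:**
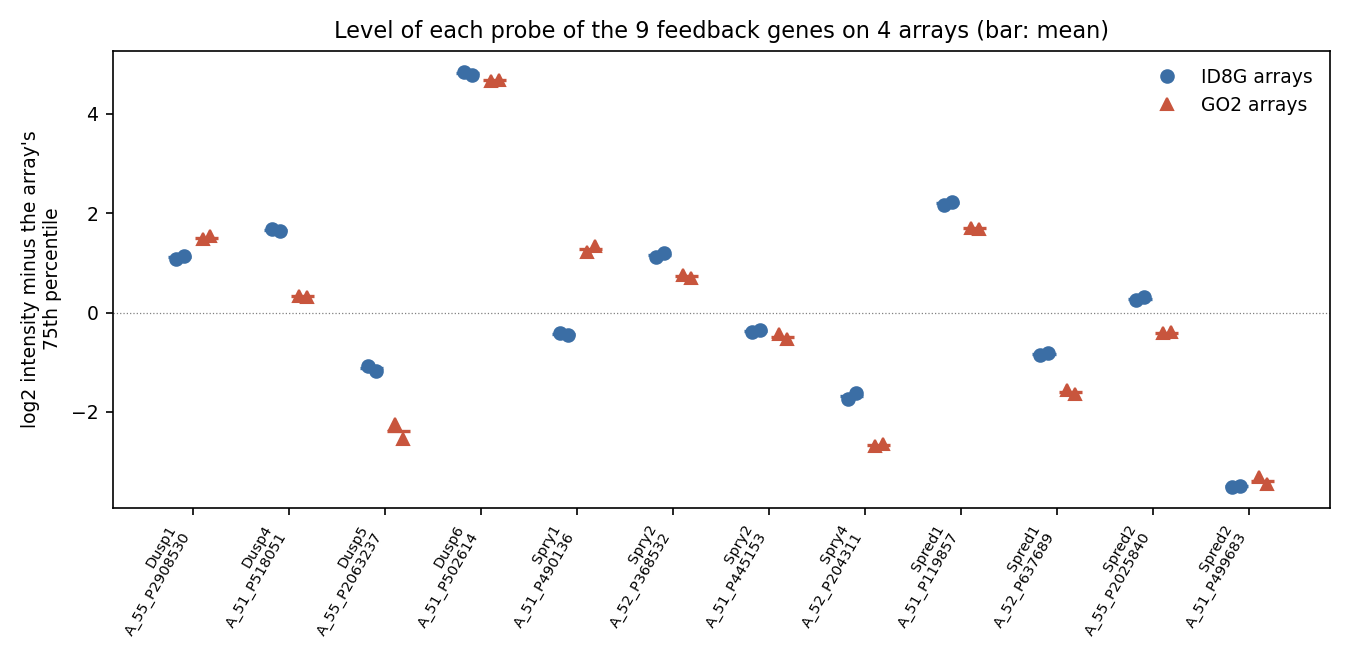
Level (log2 intensity relative to the array's 75th percentile) of the 12 probes of the 9 feedback genes, with circles for the 2 ID8G arrays, triangles for the 2 GO2 arrays and a bar at each mean. The GO2 arrays sit above the ID8G arrays for Dusp1, for Spry1 and for the dimmer Spred2 probe, and below them for the other 9 probes.

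The nuclear phosphatases moved in opposite directions. Dusp4, which acts on ERK, JNK and p38 in the nucleus, had levels of 1.67 and 1.65 in ID8G and 0.34 and 0.32 in GO2. The arrays of a line lay within 0.02 of each other, and both GO2 arrays were far below both ID8G arrays. The difference was −1.33 ± 0.05 (SE, n = 2 arrays per line, adjusted p = 0.000473, limma), or 2.52-fold lower in GO2. Dusp5, which dephosphorylates ERK and little else and also holds it in the nucleus, had levels of −1.08 and −1.17 in ID8G and −2.24 and −2.55 in GO2. The GO2 arrays of Dusp5 differed by 0.32, the widest gap between arrays of a line among the 12 probes, yet both were below ID8G. Its difference was −1.27 ± 0.13 (SE, adjusted p = 0.00455), or 2.41-fold lower, and it fell to −0.87 when the background was modelled with normexp, which left it under 2-fold with adjusted p = 0.000197. Dusp1, an immediate-early gene whose product acts most strongly on p38 and JNK, went the other way, with levels of 1.08 and 1.14 in ID8G and 1.48 and 1.54 in GO2. It was higher by 0.40 ± 0.06 (SE, adjusted p = 0.0112), or 1.32-fold. Dusp1 no longer passed without ID8G replicate 1 (0.37, adjusted p = 0.0542) or without GO2 replicate 2 (0.37, adjusted p = 0.0572), and with arrays scaled to the spike-in transcripts it was 0.19 with adjusted p = 0.218.

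Dusp6, the cytoplasmic ERK phosphatase that is often taken as the readiest marker of ERK output, did not pass the test. Its levels were 4.86 and 4.78 in ID8G and 4.67 and 4.69 in GO2. Both GO2 arrays were below both ID8G arrays, but the gap between the lines was not much wider than that between the ID8G arrays. The difference was −0.14 ± 0.06 (SE, adjusted p = 0.126, limma), with a 95% interval from −0.29 to 0.01. Dusp6 passed as lower under an intensity trend in the variance (adjusted p = 0.0307) and with spike-in scaling (−0.35, adjusted p = 0.0462).

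Among the Sprouty genes, Spry1 rose while Spry4 fell, and both probes of Spry2 were lower but only the brighter passed. Spry1, which restrains signalling from FGF and other receptors to Ras, had levels of −0.41 and −0.46 in ID8G and 1.22 and 1.34 in GO2. Both GO2 arrays were above both ID8G arrays by a distance many times that between arrays of a line. Its difference of 1.71 ± 0.06 (SE, adjusted p = 0.000481, limma), or 3.28-fold, was the greatest in size among the 9 genes. Spry4, a Sprouty protein that can inhibit Raf activation, had levels of −1.75 and −1.63 in ID8G and −2.69 and −2.64 in GO2. The groups did not overlap, and the difference of −0.98 ± 0.07 (SE, adjusted p = 0.00179) was 1.97-fold, just short of 2-fold. Centring each array on its median made it −1.01 and so past 2-fold, spike-in scaling made it −1.19, and normexp background made it −0.61, with an adjusted p below the threshold in each. Spry2, which also binds the ubiquitin ligase Cbl and affects receptor turnover, was read by 2 probes. The brighter gave 1.11 and 1.20 in ID8G and 0.77 and 0.70 in GO2, a difference of −0.42 ± 0.06 (SE, adjusted p = 0.0120). The dimmer gave −0.39 and −0.36 in ID8G and −0.43 and −0.54 in GO2, a difference of −0.11 ± 0.06 (SE, adjusted p = 0.235) that did not pass. Both probes lay lower on the GO2 arrays, and the brighter lost its call without ID8G replicate 2 (−0.38, adjusted p = 0.0526) and without GO2 replicate 2 (−0.39, adjusted p = 0.0593).

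Both Spred genes were lower in GO2 by their brightest probes. Spred1, which recruits neurofibromin to the membrane, was lower by both of its probes. The brighter had levels of 2.17 and 2.23 in ID8G and 1.71 and 1.68 in GO2, a difference of −0.51 ± 0.05 (SE, adjusted p = 0.00564, limma). The other had −0.85 and −0.81 in ID8G and −1.56 and −1.64 in GO2, a difference of −0.77 ± 0.06 (SE, adjusted p = 0.00233). In each, the arrays of a line were close together and the lines were apart, with 1.42-fold and 1.70-fold less signal in GO2. With no filter on dim probes the brighter no longer passed (adjusted p = 0.0579, limma). Neither passed when the test required a minimum log2 difference of 0.5 (limma treat). Spred2, a close relative with the same binding partners, had levels of 0.24 and 0.32 in ID8G and −0.42 and −0.40 in GO2 by its brighter probe. That probe differed by −0.69 ± 0.06 (SE, adjusted p = 0.00281), or 1.61-fold, and did not pass under limma treat (adjusted p = 0.134). The dimmer Spred2 probe was well above background on only 1 of the 2 ID8G arrays, and its levels of −3.51, −3.49, −3.31 and −3.46 in the same order gave 0.12 ± 0.07 (SE, adjusted p = 0.255), which did not pass and was −0.089 with spike-in scaling. With the tested probes of each gene averaged, Spred2 was −0.28 (adjusted p = 0.0246) and Spry2 −0.27 (adjusted p = 0.0357).

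**Figure D2:**
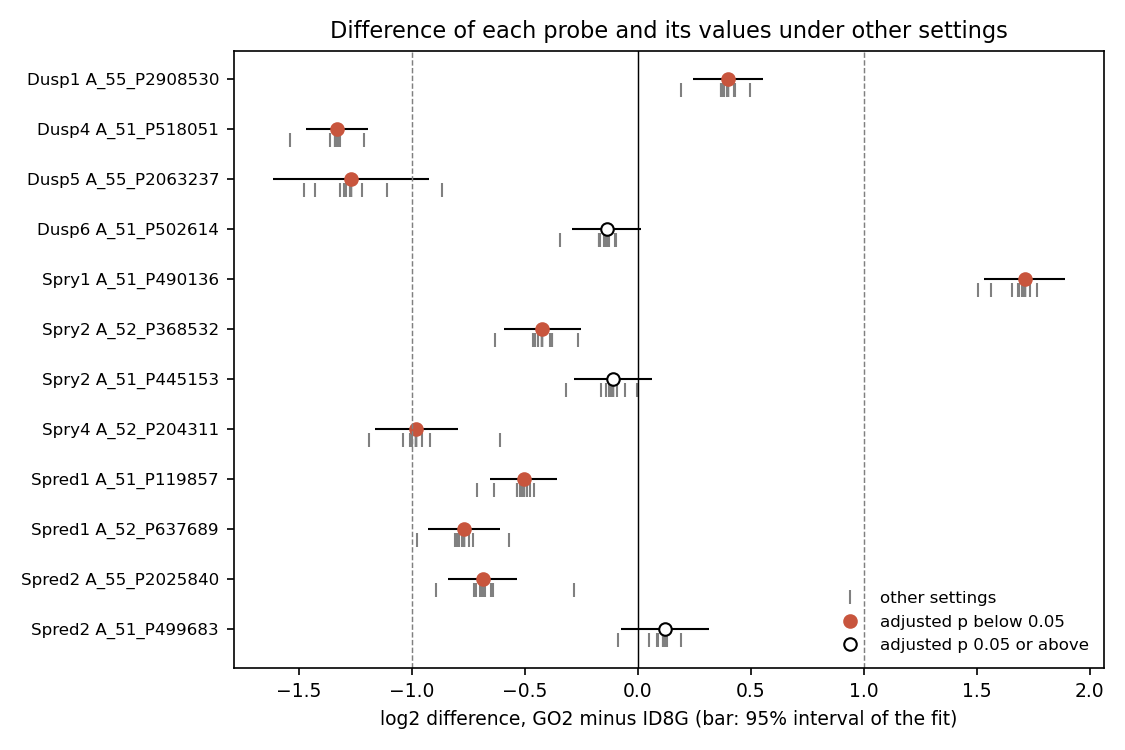
Log2 difference between GO2 and ID8G for the 12 probes, with the 95% interval of the limma fit as a bar, filled points where the adjusted p was below 0.05, grey ticks at the values under other settings and dashed lines at 2-fold. Dusp4 (−1.33), Dusp5 (−1.27) and Spry1 (1.71) lie past the 2-fold lines, and Dusp6 and the dimmer Spry2 and Spred2 probes are open.

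Measured against the array as a whole, the feedback genes were not among its extremes. There were 618 gene names with a greater rise than Spry1, 521 with a lower difference than Dusp4, 568 with a lower difference than Dusp5 and 869 with a lower difference than Spry4. The genes most like each of the 3 called members were found by the distance between levels centred on their own mean over the 4 arrays. For Dusp4 they were Aldoc, a glycolytic aldolase (distance 0.0293), C1qtnf7 (0.0469) and Mindy4 (0.0486). For Dusp5 they were Mfap3l (0.0846), Tspan1, a tetraspanin (0.0864), and Gm19639 (0.0886), and for Spry1 they were Il27ra, a cytokine receptor subunit (0.0295), Ephx2, an epoxide hydrolase (0.0533), and Ajm1 (0.0594). With 4 arrays in 2 lines such distances are little more than a match in the size of the difference.

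**Figure D3:**
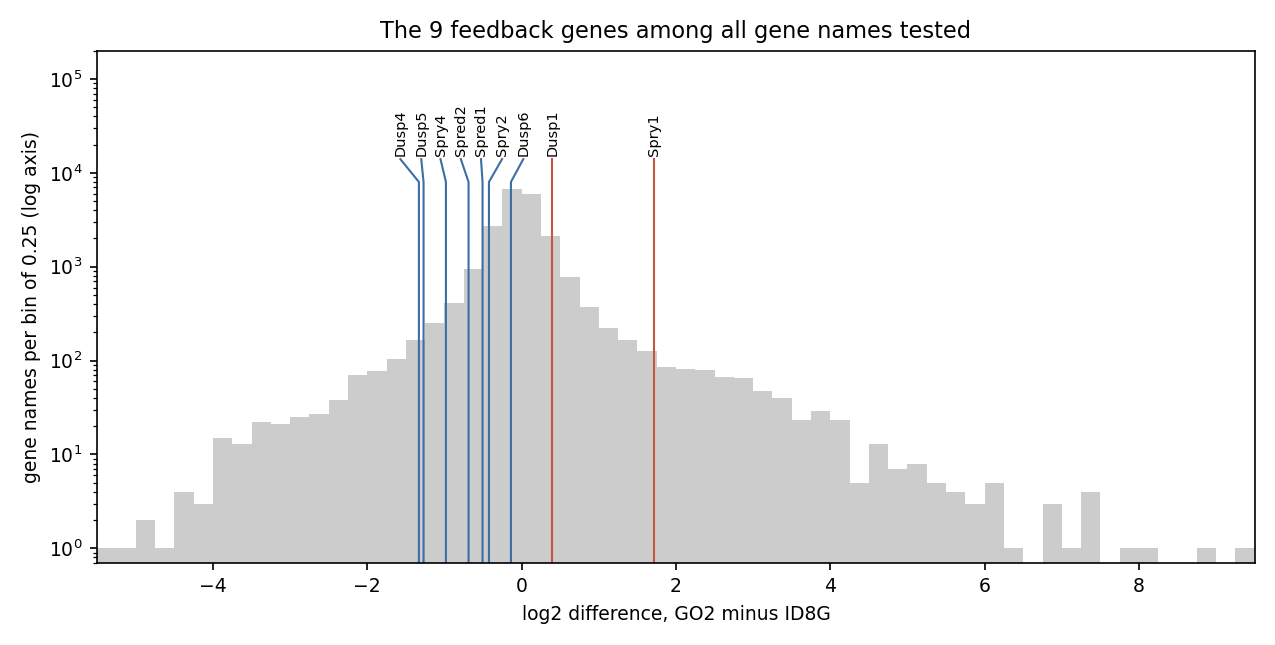
Number of gene names (log axis) in each bin of the log2 difference between GO2 and ID8G, over 22075 gene names, with lines at the 9 feedback genes (blue where lower in GO2, red where higher). Spry1 at 1.71 stands right of the bulk, and Dusp4 at −1.33 and Dusp5 at −1.27 left of it, all inside the range of the array.

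The relatives of these genes did not share 1 direction. Of the 6 other classical MAP kinase phosphatases, 4 were measured and all 4 passed below 2-fold. Dusp10 (0.42), a JNK and p38 phosphatase, and Dusp7 (0.40), a cytoplasmic ERK phosphatase like Dusp6, were higher, and Dusp16 (−0.64) and Dusp8 (−0.48), both JNK and p38 phosphatases, were lower. The higher pair did not pass with spike-in scaling, and 1 of them passed without ID8G replicate 1, GO2 replicate 1 or GO2 replicate 2. Of the 14 atypical Dusp genes, 9 were measured, 3 passed as higher, 3 as lower and 3 did not pass. Without GO2 replicate 1 these counts were 1 higher and 1 lower, and without any other single array 2 and 1. Dusp23 was higher by 2.13 (adjusted p = 0.000428) and Dusp18 fell by 1.05 (adjusted p = 0.00132). Dusp22 was not well above background in ID8G and was at least 2.03-fold higher in GO2. Such a bound sets the mean of the bright line against the lowest signal well above background in the other. Genes of this kind entered the test only through the line where they were bright. Their p-values rest on signal near background in the other line, so they are read by the bound. The counts of genes that passed include them. Spry3 and Spred3, the remaining Sprouty and Spred genes, differed by 0.34 (adjusted p = 0.0179, with 1 of the 2 ID8G arrays well above background) and 0.07 (adjusted p = 0.355).

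Other genes listed as inhibitors of Ras and ERK also went in both directions. Of 21 listed, 18 were measured, 5 passed as higher, 4 as lower and 9 did not pass, with a median difference of 0.05. Leaving out single arrays gave 2 to 4 higher (2 without GO2 replicate 2, 3 without ID8G replicate 1 or GO2 replicate 1) and 3 to 4 lower. The list also holds Peak1 (0.84, adjusted p = 0.00189), a pseudokinase scaffold that can promote this signalling, among the 5 higher. Dok2, an adaptor that recruits a Ras GTPase-activating protein, fell by 2.13 (adjusted p = 0.000282), and Dab2ip, such an activating protein itself, was higher by 1.42 (adjusted p = 0.000836) and by 1.44 with its other probe. Below 2-fold, Errfi1 (−0.73), a feedback inhibitor of the EGF receptor, Rasa3 (−0.74) and Il17rd (−0.43), also called Sef, passed as lower. Nf1, which encodes the neurofibromin that Spred proteins recruit, did not pass (−0.07, adjusted p = 0.335).

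Genes known to respond to ERK, taken as a list, went both ways. Of 19 listed, 18 were measured, 8 passed as higher, 7 as lower and 3 did not pass, with a median difference of 0.24 that became 0.03 with spike-in scaling. The counts were 6 higher and 8 lower with spike-in scaling, and 8 and 8 with median centring or the normexp background. Most are known as induced by ERK, but Bcl2l11 (0.58, adjusted p = 0.00723), among the 8 higher, encodes the cell death protein Bim, which ERK signalling is known to repress. Egr1, an immediate-early transcription factor, had levels of 0.02 and −0.04 in ID8G and 1.57 and 1.52 in GO2, and was higher by 1.56 ± 0.06 (SE, adjusted p = 0.00044). Some other early-response genes also passed as higher, with Fos at 0.97 (1 of the 2 ID8G arrays well above background), Ier2 at 0.90 and Fosl1 at 0.81. The early-response genes Ier3 and Myc passed as lower, with values given below. Egr2, not well above background in ID8G, did not pass (adjusted p = 0.116, limma). In the same direction as Dusp4 and Dusp5 were the ETS factors Etv4 (−1.23, adjusted p = 0.000685, and −1.35 by its other probe) and Etv1. Etv1 was not well above background in GO2 and at least 16.4-fold lower there. Ier3 fell by 1.93 (adjusted p = 0.000286) and Phlda1 fell by 0.68 (adjusted p = 0.0045), while Etv5, with −0.41, did not pass (adjusted p = 0.0571). Cyclin D1 (Ccnd1) was 0.29 higher and Myc differed by −0.27, both past the test.

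None of the measured genes of the Ras to ERK cascade reached 2-fold. Of 30 such genes, 5 passed as higher and 8 as lower, and the median difference was −0.07. These counts were 2 and 2 without either ID8G replicate 1 or 2, 3 and 2 without GO2 replicate 1, 3 and 3 without GO2 replicate 2, and 2 and 12 with a median of −0.28 under spike-in scaling. Mapk3, which encodes an ERK kinase, did not pass (0.04, adjusted p = 0.562). Map2k1, a MEK gene, fell by 0.25 (adjusted p = 0.0289), and the adaptors Shc1 and Frs2 were higher by 0.62 and 0.60. Of 17 kinases of the JNK, p38 and ERK5 branches, which Dusp1 and Dusp4 also reach, 2 passed as higher and 6 as lower, with 1 higher without GO2 replicate 1 or 2 and under spike-in scaling. Mapkapk3, a kinase downstream of p38, fell by 1.05, and Mapk13, not well above background in ID8G, was at least 1.38-fold higher in GO2.

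Receptors and ligands at the top of the pathway included differences wider than any among the 9 feedback genes. Of 16 receptor tyrosine kinase genes measured, 8 passed as higher and 2 as lower, with a median of 0.21 that became 0.01 with spike-in scaling. That scaling left 6 higher and 3 lower. The collagen receptor Ddr2 was not well above background in ID8G by either probe. It was at least 50.1-fold higher in GO2 by the brighter and at least 5.24-fold by the other. Pdgfra was higher by 3.70, Pdgfrb by at least 2.42-fold, Met, the HGF receptor, by 1.28 and Fgfr3 by 1.01. Kit, not well above background in GO2, was at least 3.65-fold lower there. Of 17 ligand genes measured, 5 passed as higher and 9 as lower, with a median of −0.35. The median was −0.17 with the normexp background and −0.56 with spike-in scaling, which left 3 higher, and 5 passed as lower without GO2 replicate 1 or GO2 replicate 2. Areg, an EGF receptor ligand, fell by 2.06, Pdgfb fell by 1.25 and Vegfc fell by 1.17 (−0.77 by its other probe). Fgf21, not well above background in GO2, was at least 1.69-fold lower there, and Gas6, a ligand of Axl and its relatives, was higher by 1.73. The adjusted p of Areg, Pdgfb, Vegfc and Gas6 was below the threshold, as was that of Pdgfra, Met and Fgfr3. Fgf21, Ddr2, Pdgfrb and Kit also passed, but entered the test only through the line where they were bright. They are read by their bounds.

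**Figure D4:**
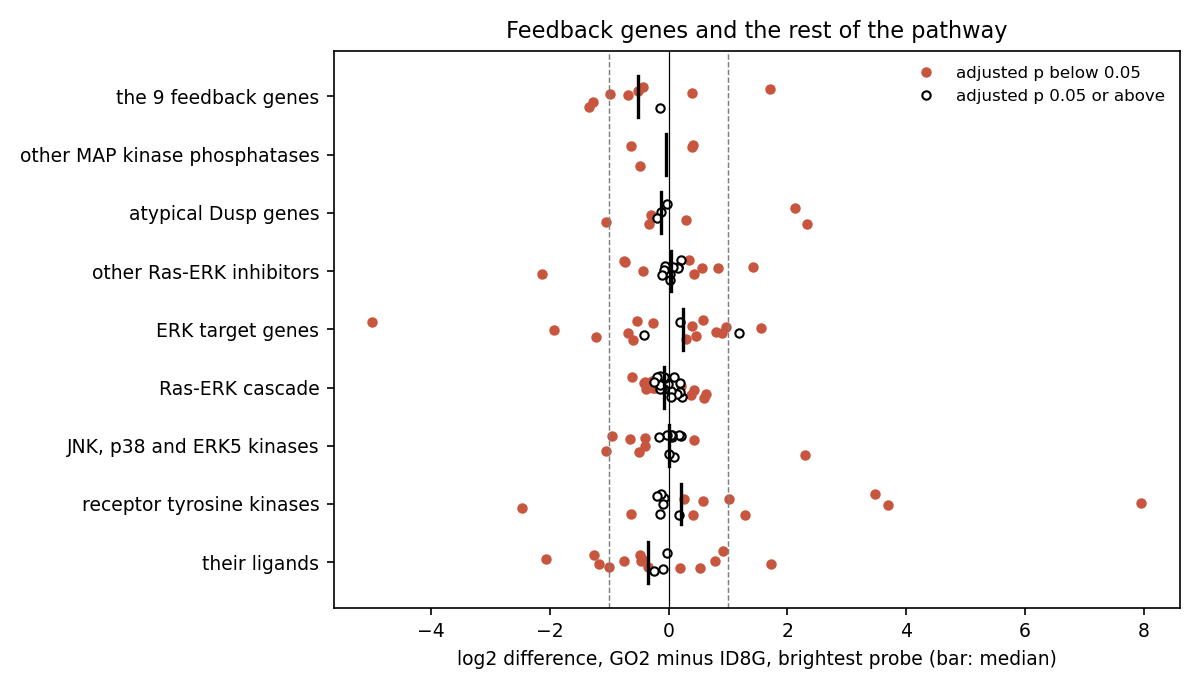
Log2 difference between GO2 and ID8G of each measured gene by its brightest probe, for the 9 feedback genes and 8 further lists, with filled points where the adjusted p was below 0.05, a bar at each median and dashed lines at 2-fold. By brightest probes the median of the feedback genes (−0.51) is the lowest of the 9 rows, and with a gene's tested probes averaged it was −0.28. The genes of the Ras-ERK cascade stay within the 2-fold lines, while Mapk13 and Mapkapk3 in the row of JNK, p38 and ERK5 kinases lie past them. Genes not well above background in 1 line (Ddr2, Pdgfrb, Etv1, Kit, Dusp22, Mapk13, Egr2, Tgfa, Fgf21) are drawn at their fitted value.

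Cell type markers were read on the same arrays. The epithelial and mesothelial markers Krt8, Krt18, Krt19, Msln, Wt1, Lrrn4 and Upk3b were well above background in both lines, 7 of the 8 listed. Their signal, summed and divided by the 75th percentile of the array, was 655 to 662 in ID8G and 373 to 376 in GO2. Krt8, Krt18, Krt19 and Msln passed as lower, with Krt19 at −1.65, and Upk3b passed as higher by 1.08. Of 6 fibroblast markers 3 were measured, and Lum, Fap and Thy1 were not well above background on both arrays of either line. Col3a1 was higher in GO2 by 4.20 and Pdgfra by 3.70 while Dcn fell by 0.63, and the summed signal was 65.9 to 68.7 in ID8G and 64.2 to 66.6 in GO2. These near-equal sums hide opposite changes, and the brightest probe, Dcn, weighs most in them. Its intensity was 45480 and 43198 in ID8G and 26956 and 26767 in GO2. That of Col3a1 was 822 and 752 in ID8G and 14547 and 12687 in GO2. Of 8 leukocyte markers 4 were measured, with sums of 6.20 to 6.23 in ID8G and 5.90 to 6.63 in GO2. Cd14 passed as lower (−0.69, adjusted p = 0.0021), Csf1r (0.22), Cd68 (0.19) and Cd3e (0.18) did not pass, and the defining Ptprc (CD45), Adgre1 and Lyz2 were not well above background on both arrays of either line. Of 4 endothelial markers only Pecam1 was measured, with a sum of 0.099 to 0.113 in ID8G and 0.111 to 0.112 in GO2, and Cdh5, Tek and Emcn were not. Of 4 adipocyte markers 2 were measured, with sums of 0.817 to 0.859 in ID8G and 0.426 to 0.434 in GO2, and Fabp4 was at least 6.28-fold lower in GO2 by its brighter probe and 1.79-fold by the other. The part of the differences in keratin, mesothelin and fibroblast markers in those of the feedback genes was not tested. Housekeeping genes differed little, with Gapdh (−0.26) and Sdha (−0.31) passing as lower among 8, neither of which passed when any 1 array was left out, and a median of −0.13.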

How the data were processed

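Total RNA of ID8G and GO2 cells was labelled with Cy3 and hybridised to SurePrint G3 Mouse 8 × 60K arrays. Per the file headers, the authors extracted intensities with Agilent Feature Extraction 11.5.1.1, and the processed signal is already background-subtracted. They also deposited a table of log2 values, used here as an alternative; the study's methods name GeneSpring with no normalization, so its centring and probe filter are not given in the sources used here. Per probe, spots were averaged after outlier spots were left out, and log2 intensity was taken minus the 75th percentile of the array. A probe was tested where both arrays of 1 line or the other called it well above background (28368 probes) with limma 3.58.1 in R 4.3.3 (lmFit, eBayes, Benjamini-Hochberg), and a call needed adjusted p below 0.05 and, where stated, at least 2-fold. Symbols came from RefSeq accessions (58.3% of probes); other gene names are those of the files. A gene was read by its brightest probe, and fold bounds follow the background flags. As an alternative, normexp used the median pixel signal with offset 50. Figures and sequences used python 3.11.15, pandas 2.3.3 and matplotlib 3.10.9.

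Members and gene lists were chosen with earlier results of these data known. All members were named, and from each list the called genes (up to 6) and at most 3 of the highest signal; the 3 genes nearest each called member were named by distance. Other genes named from the lists were chosen after their values were seen. Replicate numbers did not pair arrays: deviations of same-numbered arrays correlated at 0.03. There were 0 unused per-sample columns. The number of arrays limits the precision. Alternatives covered background, scaling, filter, floor, variance model, test, replicate block, the deposited table, averaging of probes and leaving out each array. The script for the fit was tested on simulated data. Some genes of the lists are counted but not reported here by name.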

Additional observations from a re-analysis of the deposited data

How the results depend on the processing

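Over 212 comparisons of a member probe with an alternative, 187 kept direction and side of the threshold, 22 no longer passed (9 of them under the methods' t-test), 2 newly passed and 1 reversed, the dimmer Spred2 probe, which passed in neither (0.12, and −0.089 with spike-in scaling). Dusp4, Dusp5, Spry1 and Spry4 passed under every alternative run but that t-test, with differences of −1.54 to −1.21, −1.48 to −0.87, 1.50 to 1.77 and −1.19 to −0.61. The normexp background left 1 gene lower by 2-fold (Dusp4) and a median of −0.46. With no filter on dim probes, 1 gene passed as higher and 4 as lower. Over the array 3927 of 56605 probes passed there, against 10183 of 28368 in the main fit. The methods' t-test with adjustment gave 0 genes higher and 0 lower, and 0 and 0 at 2-fold, although its unadjusted p was below 0.05 for 2 genes higher and 5 lower, among them 0.00013 for Dusp4 and 0.00745 for Spry1 (an unpaired test with Welch's correction, which pools no spread over probes). After adjustment that t-test passed only 3 of all 28368 probes, so its counts of 0 do not set these genes apart. A minimum log2 difference of 0.5 in the test (limma treat) left 1 higher and 3 lower, with 2389 of 28368 probes passing. Averaging the probes of a gene gave a median of −0.28. Scaling to 7 spike-in transcripts, chosen after seeing the data, moved the median of all probes from −0.02 to −0.23 and gave 1 higher, 7 lower (3 at 2-fold) and a median of −0.71. Leaving out each array in turn gave 1 to 2 genes higher and 5 to 6 lower, 2 to 3 of them at 2-fold, with Spry4 at −1.04 without ID8G replicate 1 and −1.01 without GO2 replicate 2. With the replicate block, 2 genes passed as higher and 6 as lower, 1 and 2 of them at 2-fold, so the block changed no call, though the replicate numbers do not pair the arrays. Keeping outlier spots, also chosen after seeing the data, changed no call. The dimmer Spred2 probe, near background, limits what can be said of it.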
